A study of Mus musculus with 48 samples.

Results

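The desmosomal cadherins are 8 of the 46983 genes in the deposited tables. They are the desmogleins Dsg1a, Dsg1b, Dsg2, Dsg3 and Dsg4 and the desmocollins Dsc1, Dsc2 and Dsc3, taken by gene name as a family of adhesion proteins. All 8 had rows in both tables and all passed the filter on low values (at least 0.5 FPKM in at least 2 libraries). FPKM counts fragments scaled to transcript length and library size, a level set per length, so that different genes may be compared.

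RNA of whole skin was sequenced in C57BL/6 mice from the chin, ventral and dorsal domains at 6 stages of the hair cycle: resting skin in competent and in refractory telogen, growth in early, mid and late anagen, and regression in catagen. These 18 groups had 2 or 3 libraries each, 43 in all. A second table held telogen ear skin (2 libraries), the ear cartilage/muscle complex (3 libraries) and the 2 dorsal competent telogen libraries with the same values as in the first table. The sources used here name no genetic change or treatment for these groups, do not give an age per library, and do not say that libraries of a group came from separate mice, so p-values measure only the spread between libraries. Whole skin holds epidermis, hair follicles, dermis and muscle, and in such bulk samples fewer cells of a type and less RNA per cell cannot be told apart.

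Desmosomes are spot junctions that hold neighbouring epithelial cells together and tie their keratin filaments to the membrane. The desmogleins and desmocollins span the membrane and bind each other across the gap between cells, and inside the cell they are held by plakoglobin (Jup) and plakophilins (Pkp1, Pkp2, Pkp3), which link them to desmoplakin (Dsp). In stratified epithelia different members are used in different layers: DSG2 and DSC2 are the widely expressed pair of simple epithelia and heart, DSG3 and DSC3 are strong in basal layers, and DSG1 and DSC1 in upper layers. DSG4 is best known from the hair shaft, and its loss in mice gives brittle, lanceolate hairs.

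In GRCm38 with the GENCODE vM21 annotation, these genes and Dsg1c lie side by side on chromosome 18 within 643592 bases. The desmocollins are on the minus strand, with Dsc3 at 19960930 to 20002351, Dsc2 at 20030633 to 20059554 and Dsc1 at 20084184 to 20114871. The desmogleins follow on the plus strand, with Dsg1a at 20310811 to 20343350, Dsg1b at 20376729 to 20410196, Dsg4 at 20436175 to 20471821, Dsg3 at 20510274 to 20547459 and Dsg2 at 20558074 to 20604521. The end of Dsg2 overlaps the antisense gene Gm16090, which was at or below 0.17 FPKM in every library, and the library kit did not keep strand. Of the 50-base windows of the Dsg1b transcript, 45.5% also occur in Dsg1a, and of those of Dsg1a 18.8% occur in Dsg1c, so the split of reads among these 3 copies is uncertain. No pair beyond Dsg1a, Dsg1b and Dsg1c shared such a window.

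Some libraries stood apart. Depth, estimated from what 1 fragment adds to the FPKM of low genes, was 6852491 to 26432975 fragments per skin library. The dorsal competent telogen and chin late anagen libraries were as close to each other (root mean square log2 distance over 22458 genes 0.416 to 0.446) as replicates of a group were (0.391 to 0.678), while libraries of any other 2 skin groups were at least 0.479 apart. Krt31, a hair shaft keratin, had 1057 and 1067 FPKM in dorsal competent telogen, 1083 and 1102 FPKM in chin late anagen, and 272 to 372 FPKM in competent telogen of the other domains. Its group means in refractory telogen were 1010 FPKM in ventral and 930 FPKM in dorsal skin. Krt81 had means of 1612 FPKM in dorsal competent telogen, 1690 in chin late anagen, and 172 and 187 in chin and ventral competent telogen. Krt35 differed less, with 895, 891, 824 and 723 FPKM in the same order. The dorsal catagen libraries were at least 0.747 from all other skin groups, little farther than chin refractory telogen from its nearest library of another group (0.687 to 0.740). The 2 ventral refractory telogen libraries differed by 0.651, within the range of replicates. Their nearest libraries of other skin groups were 0.635 and 0.657 away, about as close as they were to each other. In addition, 1 ventral catagen library carries an ear location in its labels but was kept as ventral by its source name. The counts and named calls that changed without these libraries are given with both values.

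Dsg1a had the highest group mean of the desmogleins in all 18 groups, and Dsc3 that of the desmocollins in all but ventral mid anagen, where Dsc2 had 41.2 and Dsc3 35.9 FPKM. Dsg1a had a median of 64.7 FPKM over the 43 skin libraries, from 30.8 to 107.7 FPKM, and made up 60.1% to 82.0% of the summed desmoglein FPKM. Dsc3 had a median of 59.0 FPKM, from 35.8 to 104.7 FPKM, and made up 38.8% to 88.8% of the summed desmocollin FPKM. The 2 sums were of like size, with 0.571 to 1.42 desmoglein FPKM per desmocollin FPKM. The other desmogleins were low: Dsg1b had a median of 4.91 FPKM, Dsg2 of 5.81, Dsg3 of 6.69 and Dsg4 of 7.78. Dsc1 had a median of 8.57 FPKM. Dsc2 had a median of 23.5 FPKM but ranged from 2.47 to 45.2 FPKM.

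**Figure D1:**
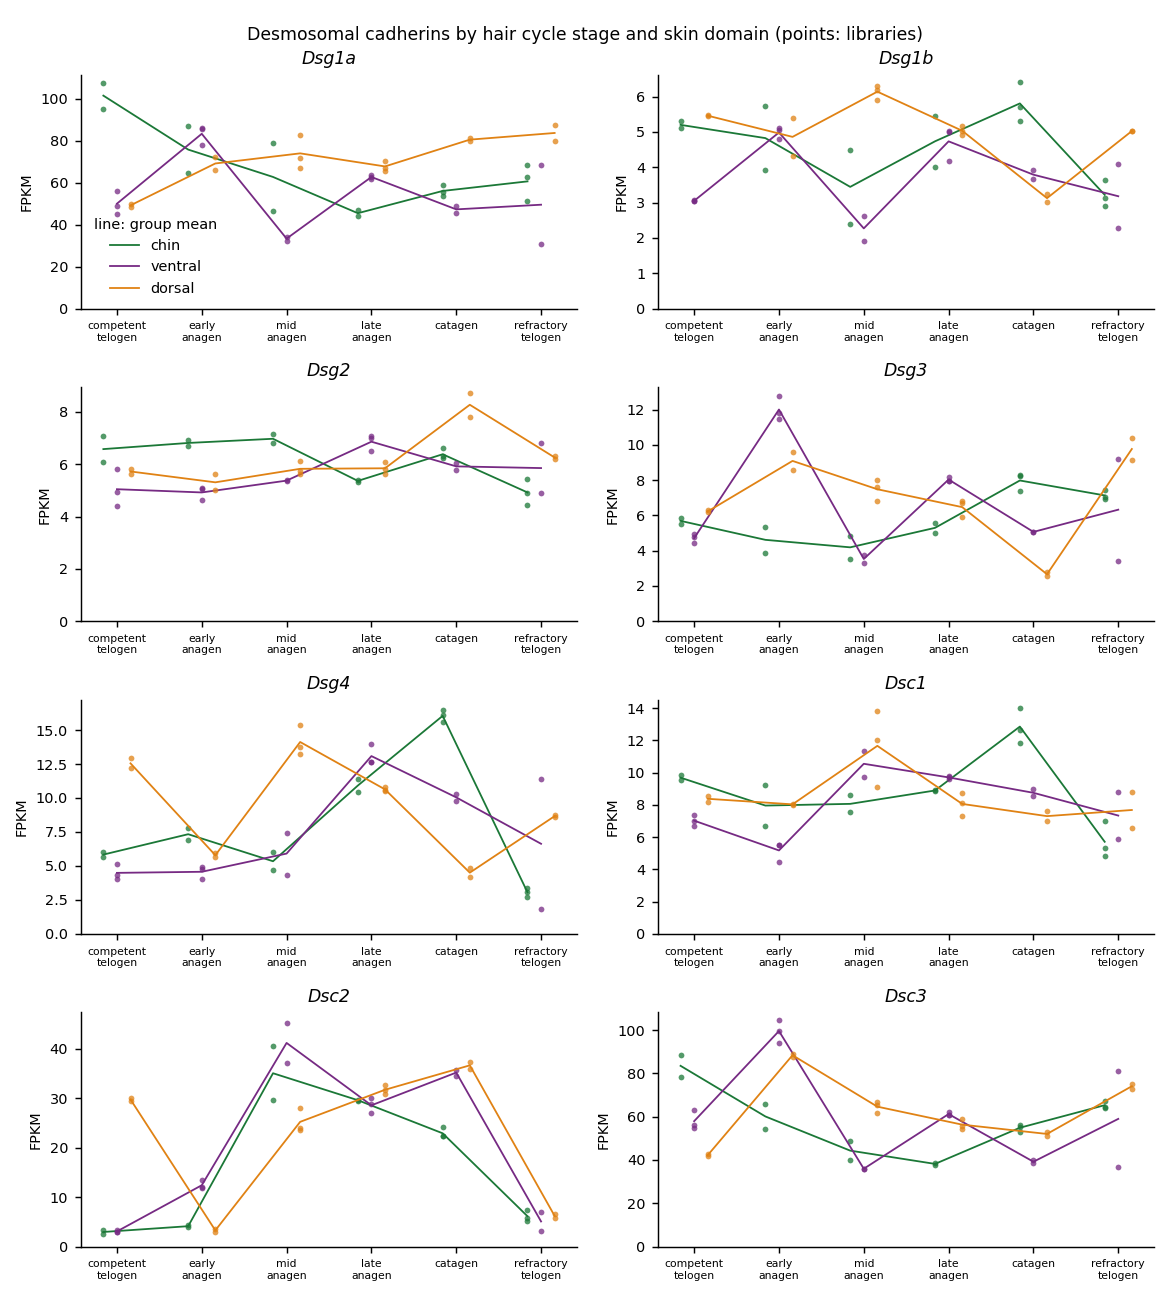
FPKM of each desmosomal cadherin (vertical axes, each starting at 0) by hair cycle stage (horizontal axis) in chin, ventral and dorsal skin; points are libraries (2 or 3 per group) and lines join group means. Dsc2 is at 2.47 to 13.5 FPKM in competent telogen, early anagen and refractory telogen and at 22.3 to 45.2 FPKM in mid anagen, late anagen and catagen, apart from the 2 dorsal competent telogen libraries near 30 FPKM.

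The levels differed among the 6 stages for 8 of 8 cadherins in chin skin, 8 of 8 in ventral skin and 8 of 8 in dorsal skin (limma F-test, adjusted p under 0.05). Over all 21257 genes tested, 66.2% were called in chin, 70.2% in ventral and 68.5% in dorsal skin, so a call by itself says little here. The stage pattern also differed among the domains for 8 of 8 cadherins, against 73.3% of all genes, and for 8 of 8 without the chin late anagen and dorsal competent telogen libraries. In dorsal skin the call of Dsg1a (adjusted p = 0.0347, limma) was lost without the chin late anagen and dorsal competent telogen libraries (0.614) and without either library of dorsal competent telogen (0.18 and 0.15) or of dorsal catagen (0.0551 and 0.0514), or the first of refractory telogen (0.0708). The dorsal calls of Dsg1b and Dsg2 were lost without the dorsal catagen libraries (adjusted p = 0.457 and 0.525), that of Dsg1b also without the second of them alone (0.059), and that of Dsc1 without the first or the second mid anagen library (0.123 and 0.0521).

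Dsc2 followed the hair cycle most plainly. In chin skin it had 3.42 and 2.47 FPKM in competent telogen and 4.37 and 3.86 FPKM in early anagen. It then had 40.6 and 29.5 FPKM in mid anagen, 29.7 and 29.5 FPKM in late anagen, 22.3, 24.2 and 22.3 FPKM in catagen, and 5.07, 7.46 and 5.85 FPKM in refractory telogen. The 7 chin libraries of mid anagen, late anagen and catagen thus all lay above the other 7, with no overlap.

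In ventral skin the same 3 stages were high, and early anagen lay between them and telogen. Dsc2 had 2.84, 3.42 and 2.91 FPKM in ventral competent telogen and already 11.9, 13.5 and 11.8 FPKM in early anagen. It had 37.2 and 45.2 FPKM in mid anagen, 26.9, 30.0 and 28.8 FPKM in late anagen, 34.6 and 35.8 FPKM in catagen, and 6.95 and 3.19 FPKM in refractory telogen. The early anagen level differed among the domains (adjusted p = 2.31e-09, limma F-test), with 3 ventral libraries above the 4 chin and dorsal ones, where Dsc2 was at 3.01 to 4.37 FPKM.

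In dorsal skin Dsc2 had 3.01 and 3.53 FPKM in early anagen, 23.5, 24.03 and 28.1 FPKM in mid anagen, 31.7, 30.8 and 32.6 FPKM in late anagen, 37.4 and 35.9 FPKM in catagen, and 6.52 and 5.87 FPKM in refractory telogen. The 2 dorsal competent telogen libraries had 30.1 and 29.4 FPKM, the level of the chin late anagen libraries (29.7 and 29.5 FPKM) that they resemble across all genes. Dsc2 differed among the domains in competent telogen (adjusted p = 2.34e-14, limma F-test), and no longer did so between chin and ventral skin without the dorsal libraries (adjusted p = 0.917).

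Dsc3, the basal desmocollin, tended to be higher where Dsc2 was lower, though not strictly. In ventral early anagen the group means were 99.6 FPKM for Dsc3 and 12.4 FPKM for Dsc2. In ventral competent telogen they were 57.9 and 3.06 FPKM. In chin skin Dsc3 had 88.7 and 78.3 FPKM in competent telogen, 39.8 and 48.8 FPKM in mid anagen, 37.8 and 38.6 FPKM in late anagen, and 64.1 to 67.3 FPKM in refractory telogen. Its highest values were in ventral early anagen, with 104.7, 99.8 and 94.2 FPKM, and its lowest in ventral mid anagen, with 36.0 and 35.8 FPKM. In dorsal skin Dsc3 had 87.7 and 89.1 FPKM in early anagen and 51.0 to 66.7 FPKM in mid anagen, late anagen and catagen, without overlap. The ventral refractory telogen libraries, with 81.2 and 36.7 FPKM, spanned most of the ventral range.

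Because both are desmocollins of 1 library, their proportion does not depend on how libraries were scaled. Dsc2 made up 3.04% ± 0.439 (SD, n = 2) of the desmocollin FPKM in chin competent telogen and 40.1% ± 8.58 (n = 2) in chin mid anagen. In ventral skin the share was 4.49% ± 0.163 (n = 3) in competent telogen and 46.9% ± 2.91 (n = 2) in mid anagen. The shares of the 19 libraries labelled competent telogen, early anagen or refractory telogen, leaving out dorsal competent telogen, were 2.73% to 11.3%, and those of the 20 labelled mid anagen, late anagen or catagen, leaving out chin late anagen, 23.7% to 48.9%. Between the 2 ventral refractory telogen libraries, whose levels differ widely, the share was 7.17% and 6.97%. In dorsal competent telogen it was 37.0% in both libraries, in chin late anagen 38.3% and 38.9%.

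**Figure D2:**
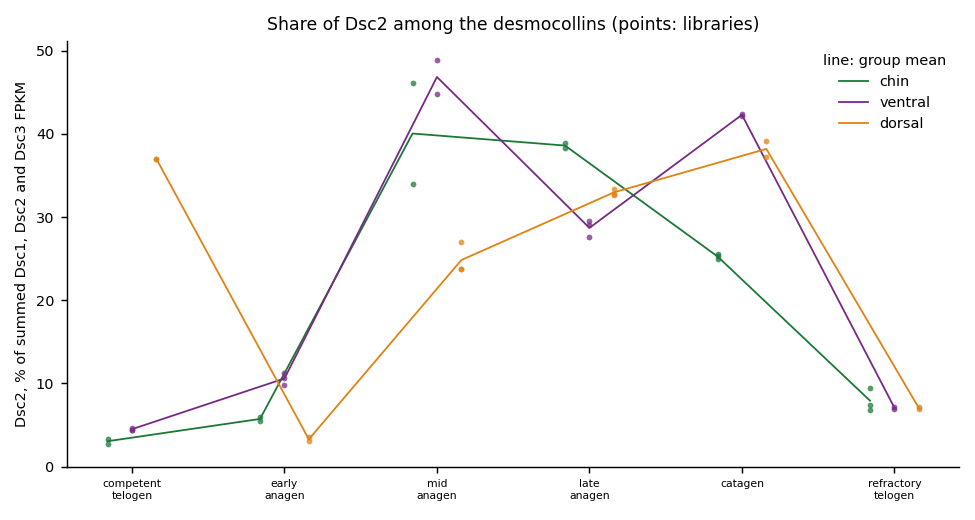
Dsc2 as a percentage of the summed Dsc1, Dsc2 and Dsc3 FPKM of each library (vertical axis) by hair cycle stage (horizontal axis) and domain; points are libraries and lines join group means. The dorsal competent telogen points at 37.0% are the only ones of competent telogen, early anagen and refractory telogen above 11.3%.

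To set hair growth against rest, the mean of mid and late anagen was compared with the mean of competent and refractory telogen in each domain, on the log2(FPKM + 1) scale with limma. In chin skin 2 of 8 cadherins rose, Dsc2 by 2.65 (SE 0.12, adjusted p = 4.76e-16) and Dsg4, the hair shaft desmoglein, by 0.72 (SE 0.21, adjusted p = 0.00748), where 8.55% of all genes were higher. Also in chin skin 3 of 8 fell, Dsc3 by 0.83 (SE 0.12, adjusted p = 1.47e-06), Dsg1a by 0.56 (SE 0.15, adjusted p = 0.00252) and Dsg3 by 0.37 (SE 0.13, adjusted p = 0.0231), where 34.1% of all genes were lower. The median log2 difference of the 8 was 0.02, that of all genes tested -0.17.

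In ventral skin 3 of 8 rose and none fell at this threshold, where 8.82% of all genes were higher and 22.9% lower. They were Dsc2, by 2.87 (SE 0.12, adjusted p = 4.36e-17), Dsg4, by 0.77 (SE 0.20, adjusted p = 0.00409), and Dsc1, by 0.45 (SE 0.11, adjusted p = 0.00156). Dsc3, lower by a log2 difference of -0.26 (adjusted p = 0.0831, limma), and Dsg2, higher by 0.15 (adjusted p = 0.102, limma), passed only an unadjusted limma p under 0.05. The share of all genes at that looser threshold is not given here, so this says little about the cadherins. In dorsal skin Dsc2 alone of the 8 passed, higher by 0.98 (SE 0.12, adjusted p = 2.12e-07), where 21.0% of all genes were higher and 10.4% lower. Without the chin late anagen and dorsal competent telogen libraries, dorsal anagen was set against refractory telogen alone, unlike the chin and ventral contrasts above. The dorsal difference of Dsc2 was then 2.02 (adjusted p = 1.27e-10, limma) and 2 of 8 passed, without a share of all genes to set beside it. Dsc1 in dorsal skin, higher by 0.24, passed only the unadjusted threshold (adjusted p = 0.0885, limma). The median log2 difference of the 8 was 0.12 in ventral and 0.12 in dorsal skin, against -0.09 and 0.04 over all genes. Of all calls, the share that were higher was 20.1% in chin, 27.8% in ventral and 66.8% in dorsal skin, and 48.8%, 52.7% and 48.2% after scaling by medians of ratios.

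**Figure D3:**
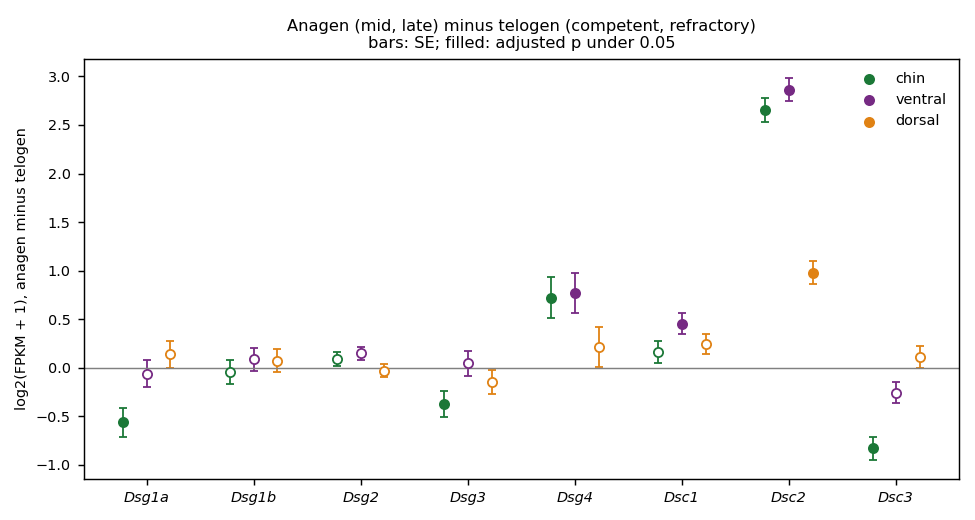
Difference of log2(FPKM + 1) between the mean of mid and late anagen and the mean of competent and refractory telogen (vertical axis) for each cadherin (horizontal axis) in chin, ventral and dorsal skin; bars are standard errors from limma and filled points passed an adjusted p under 0.05. Dsc2 stands at 2.65, 2.87 and 0.98, and no other cadherin passed in all 3 domains.

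The rise of Dsc2 passed under every alternative run in all 3 domains. In chin skin Dsg1a did not pass with median-of-ratios scaling (-0.30, adjusted p = 0.0877), nor Dsg3 after this scaling (-0.15, adjusted p = 0.367) or quantile normalization (-0.10, adjusted p = 0.541), nor Dsg1a and Dsg4 without late anagen (-0.36 and 0.26, adjusted p = 0.133 and 0.495). The chin call of Dsg3 was also lost without the first library of competent telogen (adjusted p = 0.0682), mid anagen (0.129) or late anagen (0.0783). The ventral call of Dsg4 was lost with mid anagen alone (0.24, adjusted p = 0.569) and without the second refractory telogen library (0.24, adjusted p = 0.0649).

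Dsg4 was high at different stages in the 3 domains. It had 4.70 and 5.99 FPKM in chin mid anagen, 10.46 and 11.4 FPKM in chin late anagen and its highest values of all, 15.6 to 16.5 FPKM, in chin catagen. In ventral skin it had 4.36 and 7.46 FPKM in mid anagen and 12.6 to 14.0 FPKM in late anagen. In dorsal skin it was already at 13.2 to 15.4 FPKM in mid anagen and at 4.16 and 4.85 FPKM in catagen. The 3 dorsal mid anagen libraries lay above all 4 chin and ventral ones, and the difference among domains at mid anagen passed (adjusted p = 0.00101, limma F-test). The ventral refractory telogen libraries had 11.4 and 1.84 FPKM, the latter the lowest value of the gene in skin.

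Dsg3, the basal desmoglein, was highest in ventral early anagen, with 12.8, 11.5 and 11.8 FPKM, above 8.59 and 9.59 FPKM in dorsal and 5.34 and 3.89 FPKM in chin early anagen. The 3 domains did not overlap at this stage, and their difference passed (adjusted p = 7.71e-06, limma F-test). Its lowest values, 2.56 and 2.77 FPKM, were in dorsal catagen. Dsg1a was highest in chin competent telogen, with 107.7 and 95.3 FPKM, and its lowest group mean was in ventral mid anagen, with 32.4 and 34.3 FPKM. Dsg2 moved least, from a group mean of 4.92 FPKM in ventral early anagen to 8.28 FPKM in dorsal catagen. Dsg1b ran from 2.27 FPKM in ventral mid anagen to 6.14 FPKM in dorsal mid anagen, and Dsc1 from 5.17 FPKM in ventral early anagen to 12.8 FPKM in chin catagen.

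When the 18 groups were ordered by mean, most neighbours overlapped in their library values: 16 of 17 neighbouring pairs for Dsc1, 15 for Dsg1a, 14 for Dsg1b and for Dsg2, 12 for Dsc2, and 11 for Dsg3, Dsg4 and Dsc3. The ratio of the highest to the lowest group mean was 14.0 for Dsc2, 5.24 for Dsg4, 4.50 for Dsg3, 3.04 for Dsg1a, 2.77 for Dsc3, 2.70 for Dsg1b, 2.48 for Dsc1 and 1.68 for Dsg2. The median coefficient of variation within a group was 3.00% to 8.74% for the 8 genes. In ventral refractory telogen it reached 23.1% for Dsg2 and 102% for Dsg4.

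Among the domains at a single stage, 6 of 8 cadherins differed in competent telogen (54.0% of all genes), 5 in early anagen (51.6%), 8 in mid anagen (38.1%), 2 in late anagen (20.8%), 8 in catagen (42.9%) and 5 in refractory telogen (42.2%; limma F-tests). Without the chin late anagen and dorsal competent telogen libraries the counts were 4 in competent telogen, where Dsc2 and Dsg4 (adjusted p = 0.505) were lost, 6 in mid anagen and 7 in catagen. The competent telogen test then covered chin and ventral skin only. The shares of all genes in that fit are not given here, so the changes in count cannot be read as particular to the cadherins. At late anagen the 2 were Dsc3 (adjusted p = 0.00661) and Dsg2 (adjusted p = 0.0468). Dsc3 had 37.8 and 38.6 FPKM in chin, 60.6 to 62.1 FPKM in ventral and 54.4 to 59.0 FPKM in dorsal late anagen, without overlap. Without the chin late anagen libraries neither passed between ventral and dorsal skin (adjusted p = 0.824 for Dsc3 and 0.301 for Dsg2, limma). Dsc3 was also lost without either of the 2 chin libraries alone (0.0799 and 0.0677), and Dsg2 under most single-library omissions (up to 0.144). Dsc2 did not pass at late anagen (adjusted p = 0.795), with 26.9 to 32.6 FPKM in all 8 libraries.

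Without the dorsal catagen libraries 1 of 8, Dsc2, passed between chin and ventral catagen (adjusted p = 0.0369, limma), and the other 7 had adjusted p from 0.0553 (Dsc1) to 0.679 (Dsg2). For this and the other fits with libraries left out, the share of all genes called is not given here, so the counts have no background beside them. For Dsc1 the chin libraries stood apart at catagen, with 11.9 to 14.0 FPKM against 8.52 and 8.97 FPKM in ventral and 7.01 and 7.59 FPKM in dorsal skin. Dorsal catagen was the lowest of the 18 groups for Dsg3 and the highest for Dsg2. In the same libraries Jup was at 31.4 and 35.5 FPKM, against group means of 169 to 241 FPKM elsewhere in skin, and the basal keratin Krt5 had a mean of 486 FPKM, the lowest of the 18 groups. The part of cell makeup in these values was not tested. At refractory telogen 1 of 8 passed without the first dorsal library, and Dsc2 and Dsc3 (adjusted p = 0.265 and 0.116) passed without the first ventral library (0.00045 and 2.09e-08, limma), Dsc3 also without the second (0.0172) and with median-of-ratios (0.0158) or quantile scaling (0.0202). At mid anagen the calls of Dsg2 and Dsc1 (adjusted p = 0.0385 and 0.0427) were each lost without any of several single libraries (adjusted p up to 0.196 and 0.254).

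The anagen minus telogen difference itself was compared between domains, in comparisons that share their libraries. Dorsal minus chin passed for 3 of 8 (40.8% of all genes), dorsal minus ventral for 1 of 8 (26.7%) and ventral minus chin for 1 of 8 (13.3%). For Dsc2 the dorsal difference minus that of chin was -1.67 (SE 0.17, adjusted p = 1.02e-08) and minus that of ventral skin -1.89 (SE 0.17, adjusted p = 1.14e-09) on the log2 scale. Without the dorsal competent telogen and chin late anagen libraries these values were -0.74 (adjusted p = 0.014) and -0.84 (adjusted p = 0.00234), and both passed. Dsc3 (0.94, SE 0.16, adjusted p = 3.3e-05) and Dsg1a (0.70, SE 0.20, adjusted p = 0.00624) had higher dorsal than chin differences, and neither passed without those libraries (0.44, adjusted p = 0.124, and 0.12, adjusted p = 0.793). The fit without them set dorsal anagen against refractory telogen alone, and chin mid anagen alone against both telogen stages. Dsc2 had higher group means in refractory than in competent telogen, 6.13 and 2.95 FPKM in chin and 5.07 and 3.06 FPKM in ventral skin. The contrasts are thus unlike between domains, and a Dsc2 difference over like stages was not tested.

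Markers of the hair matrix and shaft and of basal keratinocytes moved with the same contrast. Of 10 markers of the hair matrix and shaft, 10 rose from telogen to anagen in chin, 10 in ventral and 5 in dorsal skin, with a summed level of 1761 to 2138 FPKM in ventral competent telogen and 8529 to 8932 FPKM in ventral mid anagen. The dorsal contrast of this and the basal list uses the dorsal competent telogen libraries. The hair matrix and shaft list summed to 6868 to 6930 FPKM there and to 6785 to 7293 FPKM in chin late anagen. Of all genes 8.55% rose in chin, 8.82% in ventral and 21.0% in dorsal skin. Of 7 markers of basal keratinocytes, 7 fell in chin, 7 in ventral and 3 in dorsal skin, with summed levels of 5036 to 5887 and 3538 to 3552 FPKM in the same ventral groups. The share of all genes that fell was 34.1% in chin, 22.9% in ventral and 10.4% in dorsal skin. No hair matrix or basal marker was at 0 throughout any skin group. Over the 18 groups Dsc2 correlated at r = 0.755 with the mean log2 level of the hair matrix and shaft list and at -0.713 with that of the basal list, and Dsc3 at -0.773 and 0.830. Other lists had values of like size. Dsc2 had r = -0.777 with the cartilage list, 0.66 with inner root sheath, -0.629 with immune cells and -0.627 with dermal fibroblasts. Dsc3 had r = -0.711 with inner root sheath and 0.636 with suprabasal keratinocytes. Refractory telogen departs from the correlation of Dsc2 with the hair matrix and shaft list. In ventral skin Dsc2 was at 3.19 and 6.95 FPKM beside a sum of 5834 to 6585 FPKM for that list. In dorsal skin it was at 5.87 and 6.52 FPKM beside 5273 to 5512 FPKM. Dorsal catagen had a like sum, 5642 to 5901 FPKM, with Dsc2 at 35.9 and 37.4 FPKM. The part of these cell types in the cadherin levels was not tested.

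The partners of the cadherins moved in both directions. Of 10 plaque proteins and partners, 2 rose and 2 fell in chin, 2 rose and 1 fell in ventral and 2 rose and 2 fell in dorsal anagen, with medians of -0.02, 0.05 and -0.04 on the log2 scale. The plakophilin Pkp3 rose by 0.52 in chin (SE 0.084, adjusted p = 1.17e-05) and 0.28 in ventral skin (SE 0.08, adjusted p = 0.00719), as did the cornified envelope protein Evpl, by 0.59 in chin and 0.37 in ventral skin, which fell by 0.34 in dorsal skin. Perp, a membrane protein of desmosomes, had group means of 1002 FPKM in chin late anagen to 1761 FPKM in chin competent telogen. Dsp ran from 88.9 FPKM in ventral mid anagen to 235 FPKM in dorsal catagen, Pkp1 from 71.1 FPKM in ventral mid anagen to 119 FPKM in ventral early anagen, and Dsg1c stayed at 0.12 to 0.78 FPKM. Of 8 adherens junction genes 0 passed in either direction in chin, 2 in ventral and 4 in dorsal skin. Of all genes 8.55% were higher and 34.1% lower in chin, 8.82% and 22.9% in ventral, and 21.0% and 10.4% in dorsal skin. With lists of 10 and 8 genes, such counts say little by themselves.

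Across the 18 group means of log2(FPKM + 1), the most alike pairs were Dsg1a and Dsc3 (r = 0.781), Dsg4 and Dsc1 (0.730), Dsg1b and Dsg4 (0.679), Dsg3 and Dsc3 (0.677) and Dsg1b and Dsg3 (0.642). These pairs do not form separate sets: Dsg1a and Dsg3 had r = 0.348 and Dsg1b and Dsc1 r = 0.304. The most opposed pair was Dsc2 and Dsc3, with r = -0.655, and -0.617 over 16 groups without chin late anagen and dorsal competent telogen. Dsg2 and Dsg3 had r = -0.434. The groups share stages, domains and cell makeup, and the values are a description only.

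**Figure D4:**
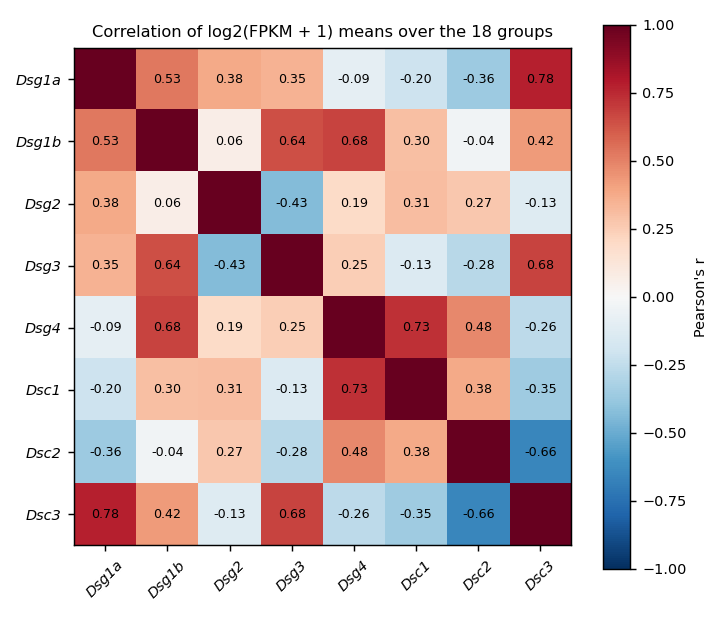
Pearson's r between the cadherins over the 18 group means of log2(FPKM + 1); rows and columns are genes and color runs from -1 (blue) to 1 (red). Dsg1a with Dsc3 (0.781) is the highest pair and Dsc2 with Dsc3 (-0.655) the lowest.

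Among 12070 genes with a highest group mean of at least 5 FPKM, those most like Dsc2 over the 18 groups were Sccpdh (r = 0.954), Crisp3 (0.949) and Stbd1 (0.941). For Dsc3 they were Sh3bgrl2 (0.929), Ggta1 (0.927) and Lama3 (0.925), the last a chain of the basement membrane protein laminin-332. For Dsg4 they were Ap1m2 (0.920), Rasgef1b (0.907) and Rhpn2 (0.890), and for Dsg3 Phyhip (0.900), Ampd3 (0.884) and Tmem50b (0.876). For Dsg1a they were Daam1 (0.884), Atp11b (0.864) and Cpd (0.860). For Dsg1b they were Zdhhc5 (0.892), the catenin Ctnnd1 (0.851) and the tight junction gene Cldn1 (0.808), for Dsg2 Eif3a (0.910), Rbm15b (0.877) and Hira (0.873), and for Dsc1 Fam83c (0.872), Actbl2 (0.861) and Ctps (0.851).

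The ear table set telogen ear skin beside dorsal skin. Dsg1a had 102.9 and 99.7 FPKM in ear skin and 48.6 and 49.8 FPKM in dorsal skin, and Dsc3 had 89.7 and 89.3 FPKM against 42.6 and 41.8 FPKM. Both were higher in ear skin, Dsg1a by 1.03 (SE 0.06, adjusted p = 4.54e-05) and Dsc3 by 1.07 (SE 0.06, adjusted p = 3.66e-05) on the log2(FPKM + 1) scale with limma, where 44.7% of all 19299 genes tested were higher. In ear skin Dsg1a made up 90.1% of the desmoglein FPKM and Dsc3 90.9% of the desmocollin FPKM, each above its share in every library of the 18 skin groups.

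Dsg4, Dsc2, Dsg2 and Dsg3 were lower in ear skin. Dsg4 had 0.02 and 0.06 FPKM in ear skin against 12.9 and 12.2 FPKM in dorsal skin, and fell by 3.70 (SE 0.09, adjusted p = 9.46e-07), a size set by the pseudocount of 1, since with 0.1 the difference was -6.51 (adjusted p = 1.65e-05, limma). Dsc2 had 1.5 and 1.69 FPKM against 30.1 and 29.4 FPKM, and fell by 3.57 (SE 0.09, adjusted p = 9.55e-07). Dsg2, with 2.08 and 2.18 against 5.64 and 5.81 FPKM, fell by 1.10 (SE 0.10, adjusted p = 0.00021), and Dsg3, with 3.18 and 3.03 against 6.28 and 6.17 FPKM, fell by 0.82 (SE 0.09, adjusted p = 0.000379), where 14.6% of all genes were lower. Dsg1b (5.59 and 6.01 against 5.48 and 5.44 FPKM) and Dsc1 (6.99 and 7.72 against 8.57 and 8.18 FPKM) did not pass, and the median of the 8 was -0.49 against 0.33 over all genes.

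The dorsal libraries of this table are those labelled competent telogen, with hair shaft genes at the level of chin late anagen. The hair matrix and shaft list summed to 49.4 and 51.8 FPKM in ear skin and to 6868 and 6930 FPKM in these dorsal libraries, its part in the result not tested. With the dorsal refractory telogen libraries in their place all 6 calls held. The log2 differences were then nearer 0 for Dsg1a (0.27, adjusted p = 0.0197), Dsc3 (0.27, adjusted p = 0.012), Dsc2 (-1.47, adjusted p = 7.3e-05) and Dsg4 (-3.22), and farther from 0 for Dsg2 (-1.21) and Dsg3 (-1.39). Ear skin values of Dsg4 and Dsc2 were below those of all 43 skin libraries, whose lowest were 1.84 and 2.47 FPKM.

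**Figure D5:**
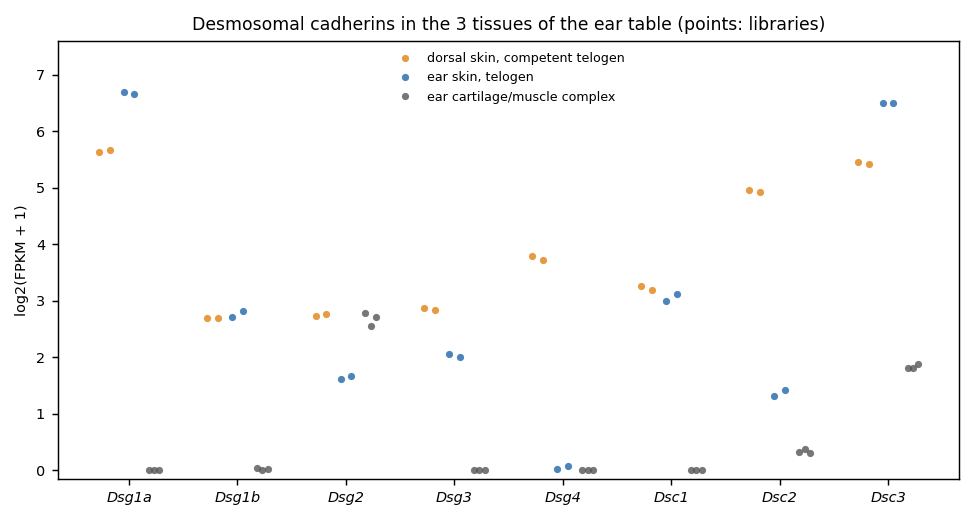
log2(FPKM + 1) of each cadherin (vertical axis) in dorsal competent telogen skin (2 libraries), telogen ear skin (2 libraries) and the ear cartilage/muscle complex (3 libraries); points are libraries. Dsg2 alone is higher in the cartilage/muscle complex (4.87 to 5.84 FPKM) than in ear skin (2.08 and 2.18 FPKM).

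In the ear cartilage/muscle complex Dsg2 was the main desmoglein. It had 5.84, 4.87 and 5.58 FPKM, above both ear skin libraries by 1.04 (SE 0.09, adjusted p = 0.000116, limma) and 99.8% of the desmoglein FPKM of this tissue. Dsg1a, Dsg3, Dsg4 and Dsc1 are listed at 0 in all 3 libraries, and Dsg1b at 0.03, 0 and 0.01 FPKM. Dsc3 had 2.49, 2.50 and 2.70 FPKM, a log2 difference of -4.67 from ear skin (SE 0.06, adjusted p = 2.73e-08), and Dsc2 had 0.25, 0.30 and 0.24 FPKM, a difference of -1.04 (SE 0.08, adjusted p = 6.1e-05) and of -2.22 with a pseudocount of 0.1 (adjusted p = 2.99e-05, limma). Against ear skin 1 of 8 was higher (28.0% of all genes) and 6 lower (38.5%), Dsg4 being near 0 in both tissues. The median log2 difference of the 8 was -2.39, that of all genes -0.11.

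Against dorsal skin 0 of 8 were higher (42.8% of all genes) and 7 lower (28.3%), a comparison that shares its libraries with the other ear table comparisons. Dsg2 did not pass, with 4.87 to 5.84 FPKM beside 5.64 and 5.81 FPKM (adjusted p = 0.532, limma). With the dorsal refractory telogen libraries as dorsal skin 7 of 8 were again lower. The median log2 difference of the 8 from the dorsal libraries of the table was -3.41 against 0.24 over all genes. The tissue carried its labelled markers, with cartilage genes summing to 1616 to 2028 FPKM against 2.79 and 2.87 FPKM in ear skin, and muscle genes to 18142 to 21013 FPKM against 959 and 994 FPKM.

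The other desmosome genes were also low there. Dsp, the desmoplakin that anchors keratin filaments, had 0.01, 0 and 0 FPKM, Pkp1 1.13 to 1.57 FPKM and Pkp3 0.60 to 0.75 FPKM, while Jup, which also serves adherens junctions, had 19.3 to 22.5 FPKM. Of 10 plaque proteins and partners, 8 were lower than in ear skin and none higher at this threshold, against 38.5% and 28.0% of all genes. Ctnnb1, the beta-catenin of adherens junctions, went against its list and was higher than in ear skin by 0.88 (SE 0.065, adjusted p = 5.24e-05). Of 7 markers of simple epithelia, 2 were higher than in ear skin and 5 lower. The 2 were the keratins Krt8, with 15.4 to 20.4 FPKM against 0.42 and 0.76 FPKM, and Krt18, with 2.20 to 2.68 FPKM against 0.05 and 0.20 FPKM. The whole list summed to 18.9 to 24.9 FPKM in the complex and 224 and 240 FPKM in ear skin, with Cldn4 at 0 in the complex, and its part in the Dsg2 level was not tested.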

How the data were processed

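The authors sequenced SMART-seq2 libraries of whole tissue as paired-end reads, aligned them to mm10 with GENCODE vM8, quantified genes by RSEM (version 1.2.25), and deposited gene-level FPKM for 43 skin and 7 ear table libraries, 48 of them distinct. They state a batch correction without naming batches. No counts were at hand. Groups were taken from the sample descriptions. Here log2(FPKM + 1) of genes that reached 0.5 FPKM in 2 or more libraries was fitted with limma 3.58.1 in R 4.3.3 (variance trend, Benjamini-Hochberg, threshold 0.05), the 43 skin libraries as 18 groups and the ear table apart. The fit and the depth estimate were tested on simulated data. The ear skin columns carry the numbers 2 and 3 and the descriptions 1 and 2, so they were used as a group without numbers. Tables were described with Python 3.11.15. The members and gene lists were chosen with earlier results of these data known. All 8 members were named, the plaque and adherens junction lists were counted with values of Dsp, Jup, Pkp1, Pkp3, Perp and members against their list, and the 3 genes most correlated with each member were named. Evpl, Dsg1c and the markers Krt5, Krt8, Krt18, Krt31, Krt35 and Krt81 were chosen after their values were seen. Alternatives were a pseudocount of 0.1, no filter, TPM, median-of-ratios or quantile scaling, a constant prior variance, a replicate block, mid anagen alone, other dorsal libraries, and each library left out. Leaving out the chin late anagen and dorsal competent telogen libraries, or the dorsal catagen ones, was chosen after seeing the data. Precision is limited by 2 or 3 libraries a group and by a depth known by estimate only.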

Additional observations from a re-analysis of the deposited data

Results flagged for a closer look

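In 5 cases the anagen minus telogen difference of a cadherin was not the same in 2 domains, by the limma test of the difference itself (log2 scale, adjusted over all genes). For Dsc2 dorsal minus chin was -1.67 (adjusted p = 1.02e-08) and dorsal minus ventral -1.89 (adjusted p = 1.14e-09). For Dsc3 dorsal minus chin was 0.94 (adjusted p = 3.3e-05) and ventral minus chin 0.58 (adjusted p = 0.0169), the latter lost without the first chin competent telogen library (0.53, adjusted p = 0.0538). For Dsg1a dorsal minus chin was 0.70 (adjusted p = 0.00624), not past the threshold after median-of-ratios scaling (0.31, adjusted p = 0.224) or quantile normalization (0.44, adjusted p = 0.103). The 3 dorsal minus chin values and the Dsc2 dorsal minus ventral value use the dorsal competent telogen libraries, and the chin values the chin late anagen libraries. Without these 4 libraries Dsc2 passed against both domains, and the other 3 did not. In that fit dorsal telogen was refractory telogen alone and chin anagen was mid anagen alone, so the stages compared differed between the domains.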

How the results depend on the processing

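No called difference of a single cadherin changed sign under the alternatives run, while the balance of calls over all genes did move with the scaling, and the median of all genes for the cartilage/muscle complex minus ear skin went from -0.11 to 0.09 with quantile normalization. Counts of cadherins past the threshold held within 1.5 times in 155 of 171 recomputations other than leaving out 1 library. The domain difference at late anagen gave 1 of 8 with a pseudocount of 0.1, no filter, quantile normalization or the replicate block, and 0 without the chin late anagen and dorsal competent telogen libraries; that at catagen gave 1 without the dorsal catagen libraries. Anagen minus telogen gave 5 in ventral skin with mid anagen alone, and 2 in dorsal skin with TPM, mid anagen alone or without those 4 libraries. The ventral minus chin difference gave 3 with TPM and 0 with mid anagen alone or without those 4 libraries, and dorsal minus ventral gave 4 with the median of ratios, 5 with quantile normalization and 3 with mid anagen alone. The cause was not tested. With 1 library left out the counts were 0 to 4 at late anagen (0 without either chin late anagen library, 4 without either ventral refractory telogen library), 5 to 8 at catagen, 1 to 7 at refractory telogen, 3 to 5 for ventral (5 without either refractory telogen library) and 1 to 2 for dorsal anagen minus telogen (2 without the third mid anagen or the first refractory telogen library), 0 to 5 for ventral minus chin (5 without the first ventral refractory telogen library) and 1 to 4 for dorsal minus ventral. Scaling moves the whole table: in chin anagen minus telogen 20.1% of calls were higher as deposited, 12.7% with TPM and 48.8% with the median of ratios, in dorsal skin 66.8%, 80.5% and 48.2%, and in ear skin minus dorsal skin 75.3%, 83.6% and 48.8%. For the dorsal minus chin difference it was 82.4% as deposited and 48.9% with the median of ratios, for dorsal minus ventral 81.9% and 45.7%, for ventral minus chin 69.2% and 50%, and for the cartilage/muscle complex minus dorsal skin 60.2% and 46.6%. Same-numbered libraries did not deviate together (mean r 0.00263, from -0.174 to 0.162, 21 of 43 libraries closest to their own number). With groups of 2 or 3 libraries and a stated batch correction, this cannot tell whether they shared a mouse or a batch. With the replicate block 98 of 101 single results stayed on their side of the threshold and 3 fell below it.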
